A study of Mus musculus with 3072 samples.

Results

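Microglia of the hippocampus were compared with microglia of the cortex in male APP/PS1 mice at 17 months. The comparison takes every APP/PS1 hippocampus column of the deposited count table against every APP/PS1 cortex column, which makes 584 of the 1878 cells of the table, 46.7% of them hippocampal. The mice carry the APPswe and PS1dE9 transgenes and an intact Apoe gene. The series' design text gives month 18 for all mice, while the labels of these cells give 17 months. For values side by side, 490 cells of male APP/PS1-ApoeKO mice at 18 months were used, 65.5% of them hippocampal, which carry the same transgenes, lack Apoe and share no cells with the APP/PS1 groups. Live single cells positive for CD11b, a surface integrin of myeloid cells, were sorted into wells, and full-length cDNA was made by a modified SmartSeq2 protocol, which counts reads and not molecules. The labels name no animals, so each tissue is 1 sample and no test between tissues is given. Both APP/PS1 tissues were read in the same 2 sequencing lanes, each holding 2 of the 4 titled plates of a tissue, so the comparison was repeated within each lane. Lanes and plates are technical parts of a sample. Intervals are exact 95% intervals and cover counting error only.

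Microglia are the resident macrophages of the brain. In mice that deposit amyloid, cells around plaques lower part of their homeostatic programme (purinergic receptors, Tmem119) and take up an activated programme downstream of the receptor Trem2, with lysosomal, lipid-handling and secreted proteins such as Cst7, Spp1, Lpl and Apoe. Microglia use both respiration and glycolysis, and inflammatory activation is known to raise glycolysis through the transcription factor Hif1a. In APP/PS1 mice plaques form in both the cortex and the hippocampus, and the comparison asks how the microglia of these regions differ in the same genotype.

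The libraries of both tissues were alike in depth. The cortical cells held 190664 to 981052 reads in genes with a median of 615541, and the hippocampal cells 71761 to 999128 with a median of 581149. A cortical cell had reads in a median of 2218 genes and a hippocampal cell in 2131, and the median share of mitochondrial reads was 2.37% and 2.02%. All 20 homeostatic microglial markers had reads in both tissues, and P2ry12, a purinergic receptor, was read in 99.3% of hippocampal and 99.4% of cortical cells once each cell was thinned to 100000 reads. Levels are given as RPM (reads of a gene per 1000000 reads summed over the tissue), and ratios as log2 of hippocampus over cortex after adding 0.5 RPM. Markers of T cells, oligodendrocyte precursors, monocytes, border-associated macrophages and endothelial cells summed to at most 18.9 RPM in either tissue, with Cd163, Lyve1, Pf4 and Chil3 at 0 reads. Other lists stood higher. Oligodendrocyte markers summed to 176.1 RPM in hippocampus and 131.1 RPM in cortex, with reads in 34.8% and 33.1% of cells. Neuron markers summed to 37.4 and 41.4 RPM, and hippocampal neuron markers to 188.2 and 145.7 RPM, in 50.5% and 47.3% of cells. Astrocyte markers summed to 388.8 and 297.3 RPM. The neutrophil list was carried by Csf3r at 654 and 604 RPM in hippocampus and cortex, and the B cell list by Ighm at 390 and 424 RPM, while S100a9, Ly6g and Igkc had 0 reads.

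Genes of the activated programme were lower in the hippocampus. Of the 28 genes listed for plaque-associated microglia, 27 averaged at least 1 RPM. Of these 24 had a ratio below 1, against 49.7% of the 12305 genes measured at that level, and 13 were at least 2-fold lower, against 8.09% of all. The median log2 ratio of the list was -0.98, with -0.68 in lane 1 and -0.64 in lane 2, beside 0.00 for all genes. In 10 of the 27 genes all 4 hippocampal plates lay below all 4 cortical plates, which held for 1.99% of all genes measured. Gpnmb, the remaining list member, had 0 hippocampal reads and 1 cortical read.

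Of the 27 genes 5 were at least 2-fold lower in both lanes, namely Cst7, Csf1, Igf1, Spp1 and Dkk2, which held for 3.18% of all genes measured. Cst7 (cystatin F, an inhibitor of lysosomal cathepsins) was read at 90.5, 187.6, 130.6 and 87.2 RPM in hippocampal plates 1 to 4 and at 423, 381.6, 270 and 478 RPM in the cortical plates. The plates did not overlap, and over all cells the level was 128.01 RPM in hippocampus and 387 RPM in cortex, 3.03-fold higher in cortex (2.98 to 3.07). Its log2 ratio was -1.44 in lane 1 and -1.78 in lane 2. Csf1 (a ligand of the receptor Csf1r that keeps microglia alive) stood at 4.78, 6.38, 6.35 and 6.37 RPM in the hippocampal plates and at 27.4, 11.7, 33.1 and 22.6 RPM in the cortical plates. It was 3.91-fold higher in cortex (3.64 to 4.197), and again no plates overlapped.

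The promoters of these genes are shown because Cst7 and Csf1 were the activated genes that passed the expression filter and were at least 2-fold lower in both lanes. Each runs from 250 bases before to 50 bases after the RefSeq start in GRCm38.p6, at chr2:150570165-150570464 on the plus strand for Cst7 and chr3:107760420-107760719 on the minus strand for Csf1. Capitals mark an NF-kB motif, searched as GGGACTTTC, GGGAATTTC or GGGAATTCC on both strands.
Cst7: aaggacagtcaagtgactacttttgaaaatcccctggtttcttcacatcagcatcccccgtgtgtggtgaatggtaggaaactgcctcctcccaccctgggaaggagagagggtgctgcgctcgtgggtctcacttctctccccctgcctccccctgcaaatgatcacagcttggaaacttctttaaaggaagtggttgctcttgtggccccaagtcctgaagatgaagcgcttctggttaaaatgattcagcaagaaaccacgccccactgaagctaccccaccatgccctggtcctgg
Csf1: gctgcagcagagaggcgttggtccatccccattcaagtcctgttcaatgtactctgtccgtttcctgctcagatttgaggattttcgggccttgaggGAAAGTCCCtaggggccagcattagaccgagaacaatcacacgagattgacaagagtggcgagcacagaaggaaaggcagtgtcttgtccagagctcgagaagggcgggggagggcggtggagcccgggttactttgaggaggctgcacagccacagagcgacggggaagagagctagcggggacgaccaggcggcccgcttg
The Csf1 window held 1 NF-kB motif, found in 0.84% of the 27025 RefSeq promoters searched and in 1 of the 20 promoters matched to the measured activated genes. No motif searched was in the Cst7 window. Those also included GAAANNGAA (interferon-stimulated response element core), in 3 of the 20 against 8.57% of all promoters, and TGACTCA (AP-1), in 2 of the 20 against 5.17%. In the promoters of genes of at least 1 RPM, the level the list members had to reach, these shares were 7.38% and 3.29%, and that of NF-kB was 0.854%.

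Spp1, Dkk2 and Igf1 were read in few cells. Spp1 (osteopontin, a secreted ligand of integrins) was read in 1 thinned hippocampal cell (0.37%) and in 9 cortical cells (2.89%), at 0, 0, 2.54 and 0 RPM in the hippocampal plates and 16.1, 28.8, 30.3 and 3.90 RPM in the cortical plates. All hippocampal Spp1 reads came from 1 cell, and 1 cortical cell held 40.1% of the 3721 cortical reads. Igf1 (a growth factor) stood at 14.4 RPM in hippocampus and 34.8 RPM in cortex, with log2 ratios of -1.28 and -1.20 in the lanes, though the plates overlapped. Dkk2 (a secreted inhibitor of Wnt signalling) stood at 3.63 and 20.4 RPM, with ratios of -1.44 and -3.16, and 1 cell held 55.3% of its hippocampal reads.

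Surface receptors of the programme were lower, with Clec7a, Axl and Itgax further apart in lane 1 than in lane 2. Clec7a (dectin-1, a receptor for glycans) was read at 25.5, 37.6, 141.8 and 73.03 RPM in hippocampal plates 1 to 4 and at 241.7, 248.9, 160.7 and 186.6 RPM in the cortical plates. Its level over all cells was 71.02 against 207.7 RPM, with no overlap between plates, but the log2 ratio was -2.89 in lane 1 and -0.68 in lane 2. Axl (a receptor that binds dying cells through bridging proteins) was 60.5 against 141.4 RPM with lane ratios of -1.60 and -0.66. Itgax (the integrin CD11c) was 51.5 against 145.4 RPM with lane ratios of -2.44 and -0.32, and its plates overlapped. Lilrb4a (an inhibitory immunoglobulin-like receptor with a near-identical paralog that can share its reads) was 10.8 against 25.5 RPM. Of the tetraspanins, Cd9 stood at 1474 against 2060 RPM and Cd63 at 433 against 630 RPM, each lower in every hippocampal plate.

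Lipid enzymes and carriers rested on fewer cells or on 1 lane. Lpl (lipoprotein lipase) was 22.8 against 61.9 RPM with lane ratios of -4.11 and -0.26, and 1 hippocampal cell held 44.9% of its reads there. Fabp5 (a fatty acid carrier) was 6.22 against 18.7 RPM with ratios of 0.02 and -3.84, so its difference came from lane 2. Ch25h (cholesterol 25-hydroxylase) was 7.66 against 19.3 RPM with ratios of -0.68 and -2.02. Ank (an exporter of pyrophosphate) was read in more cells, at 79.8 against 204.3 RPM with ratios of -1.94 and -0.85 and no overlap of plates. Apoe itself (the main apolipoprotein of the brain) stood at 11919 against 13406 RPM, a log2 ratio of -0.17 that was 0.29 in lane 1 and -0.55 in lane 2.

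Members that most microglia express stood closer. The lysosomal proteases Ctsz and Ctsl stood at 3350 against 4022 RPM and at 1393 against 1641 RPM, and Cd68, a lysosomal membrane protein, at 1384 against 1691 RPM. Tyrobp (the adaptor of Trem2) stood at 2234 against 2546 RPM. Itgb2, Timp2 and Lgals3 were the members with a ratio not below 1, at log2 values of 0.00, 0.12 and 0.20.

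**Figure D1:**
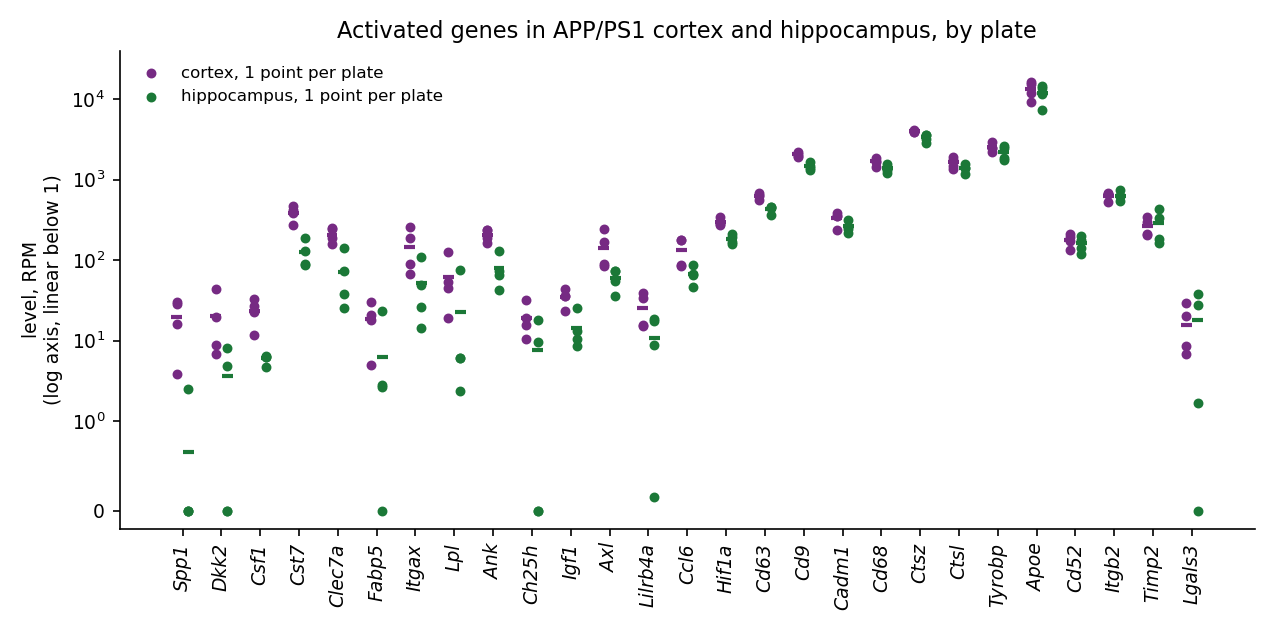
Level in RPM, on a log axis that is linear below 1, of the 27 measured genes of the activated list, ordered from the lowest ratio on the left. Each point is 1 titled plate and each bar the level over all cells of the tissue. Cst7, Csf1, Clec7a, Axl and Ank show 4 hippocampal plates below all 4 cortical plates, while the plates of Itgb2, Timp2 and Lgals3 overlap.

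Both the share of cells with a read and the level within such cells were lower. After thinning to 100000 reads per cell, Cst7 was read in 12.5% of hippocampal and 24.8% of cortical cells, and its mean level in the cells with reads was 1047 against 1472 RPM. Clec7a was read in 11.4% against 23.2% of cells, with 623 against 891 RPM in those cells. Over the 27 genes the share was lower in hippocampus for 26 and the level for 24, with a median fold of cortex over hippocampus of 1.27 for the share and 1.30 for the level. The same counts over all genes are not given here. Over the 13 genes that were at least 2-fold lower, the medians were 2.06 for the share and 1.44 for the level. All 13 had the lower share in hippocampus, and Fabp5 alone of them had the higher level there. These 13 were picked by a ratio that combines share and level, so their direction follows largely from that choice.

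**Figure D2:**
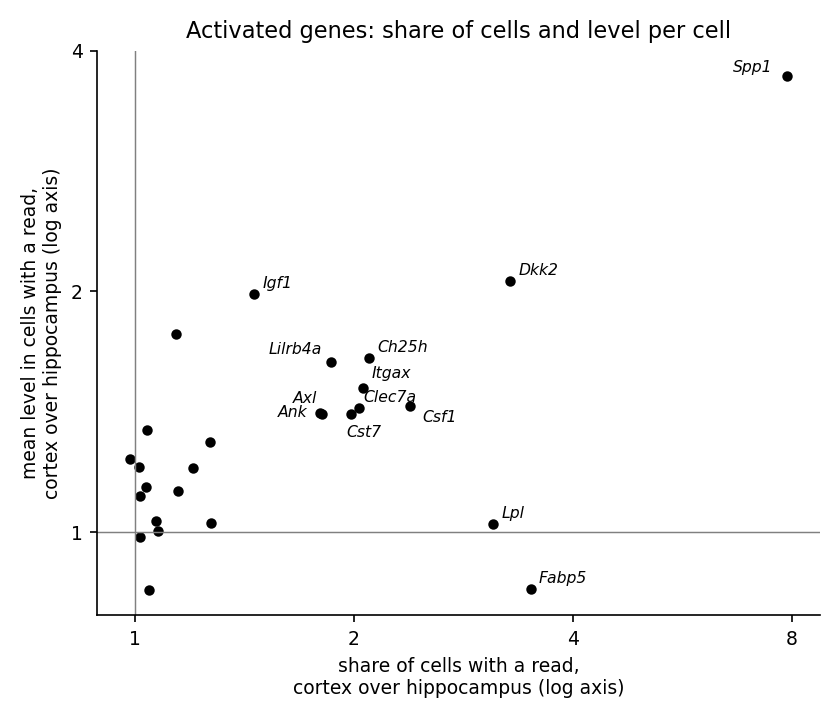
Fold of cortex over hippocampus in the share of cells with a read (x axis, log scale) against the fold in the mean level within cells with a read (y axis, log scale), for the 27 measured activated genes at 100000 reads per cell. Named genes are those at least 2-fold lower in hippocampus. Spp1 and Dkk2 lie far to the upper right, and Lpl and Fabp5 differ in share with little or no excess in level.

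Fewer hippocampal cells had many activated genes at once. A thinned hippocampal cell had reads in a median of 10 of the 28 genes (quartiles 8 and 12, at most 22) and a cortical cell in a median of 11 (quartiles 9 and 13, at most 26). At least 8 of the genes were read in 84.2% of hippocampal cells (79.3 to 88.3) and in 90.997% of cortical cells (87.3 to 93.9). Because genes such as Ctsz, Cd68 and Tyrobp are read in nearly every cell, a limit of 14 genes was added after the distribution was seen. At least 14 were read in 11.8% of hippocampal cells (8.19 to 16.2, 32 cells) and in 24.8% of cortical cells (20.1 to 29.9, 77 cells). The lanes gave 10.9% against 26.1% and 12.6% against 23.4%. Single hippocampal plates ranged from 6.49% to 19.7% and cortical plates from 19.2% to 28.9%, which overlapped at 1 hippocampal plate. The limit marks a range and not a cell type, and 18 hippocampal and 36 cortical cells lay within 1 gene of it.

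**Figure D3:**
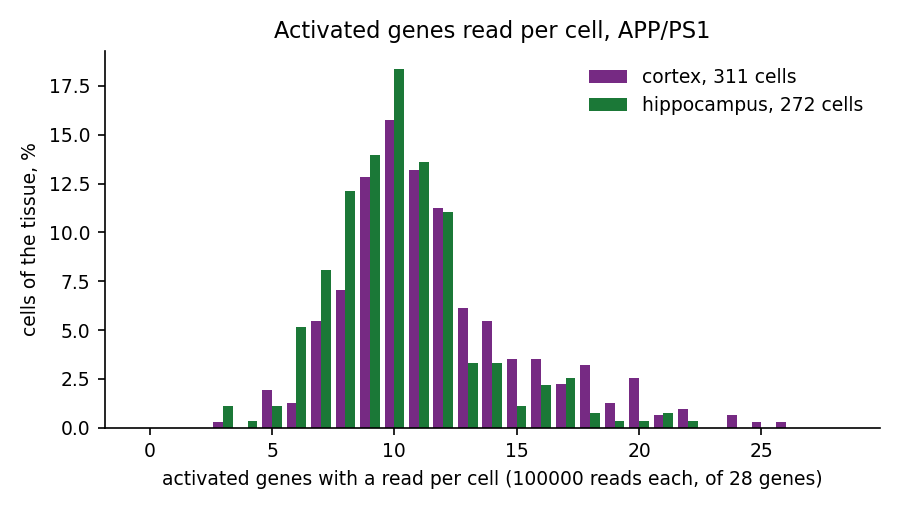
Percent of the cells of each tissue (y axis) by the number of the 28 activated genes with a read (x axis), each cell thinned to 100000 reads. Both tissues peak at 10 genes. From 13 genes upward the cortical bars are mostly the taller, and 24.8% of cortical against 11.8% of hippocampal cells have 14 or more.

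Cells with a Cst7 read more often had reads of the other activated genes examined, in both tissues. Of the 77 thinned cortical cells with Cst7, 59.7% also had Clec7a (47.9 to 70.8) and 53.2% Itgax, against 11.1% and 13.7% of the cells without Cst7. Of the 34 hippocampal cells with Cst7, 44.1% had Clec7a (27.2 to 62.1) and 32.4% Itgax, against 6.72% and 8.40% of the cells without it. Axl was read in 47.1% of hippocampal and 50.6% of cortical Cst7 cells, and Ank in 38.2% and 53.2%. Lpl was read in 20.6% of hippocampal and 33.8% of cortical Cst7 cells, Csf1 in 14.7% and 23.4%, and Spp1 in 2.94% and 10.4%. The homeostatic gene P2ry12 was lower in Cst7 cells of both tissues, at 3093 RPM in cells with Cst7 and 5396 RPM in the others in hippocampus, and at 3602 and 5261 RPM in cortex. The intervals of the tissues overlapped for the share of Cst7 cells with each of these activated genes, and Spp1 rested on 1 hippocampal Cst7 cell.

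Homeostatic genes stood slightly above the cortex in the hippocampus. Of the 20 markers 5 had a ratio below 1, against the 49.7% of all genes given above, and the median log2 ratio was 0.10, with 0.10 in lane 1 and 0.11 in lane 2. Among cells with fewer than 14 activated genes the median, over the 19 members outside the activated list, was 0.049, and among cells with at least 14 it was -0.043 where that of all genes was -0.19. No member reached a 2-fold difference. Sparc (a matricellular glycoprotein) stood at 4055, 4612, 4220 and 4530 RPM in the hippocampal plates and at 3104, 3659, 3520 and 3800 RPM in the cortical plates. Sparc, Selplg (a ligand of P-selectin) and Olfml3 (a secreted glycoprotein) were the 3 members with all hippocampal plates above all cortical plates, at log2 ratios of 0.31, 0.24 and 0.28, where 2.11% of the 5817 genes considered showed such plates. Tmem119 stood at 3972 against 3647 RPM and Cx3cr1, the fractalkine receptor, at 10899 against 9755 RPM, with overlapping plates.

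Genes of glycolysis were lower in the hippocampus along the pathway. Of 18 listed genes 17 were measured. A ratio below 1 was found for 15 of them, against 49.7% of all genes measured, and all hippocampal plates lay below all cortical plates for 7, against 1.99%. The median log2 ratio was -0.52, with -0.63 in lane 1 and -0.36 in lane 2, and none of the 17 was 2-fold lower. Several of these genes have near-identical pseudogenes, and the labels do not say how reads shared between copies were counted. Tpi1 (triosephosphate isomerase) was read at 161.2, 108.1, 122.9 and 153.4 RPM in the hippocampal plates and at 280, 230, 249.3 and 266.5 RPM in the cortical plates. The plates did not overlap, and the level over all cells was 134.1 against 255.7 RPM, 1.91-fold higher in cortex (1.88 to 1.94), with log2 ratios of -0.96 and -0.90 in the lanes. The glucose transporter Slc2a1 stood at 67.4 against 114.5 RPM, and Pfkl, the liver-type phosphofructokinase that commits sugar to the pathway, at 99.9 against 164.4 RPM. Further down the pathway Gapdh stood at 157.9 against 236.2 RPM, Pgam1 at 23.3 against 31.8 RPM and the pyruvate kinase Pkm at 134.7 against 196.5 RPM. Hif1a, which is on both this list and the activated list, stood at 181.6 against 296.7 RPM with lane ratios of -0.78 and -0.64.

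The Tpi1 promoter is shown as that of the measured glycolysis gene with the lowest ratio, at chr6:124814109-124814408 on the minus strand of GRCm38.p6 from RefSeq. None of the motifs searched was in this window, and CACGTG (E-box), searched on both strands, was in 2 of the 17 glycolysis promoters, against 7.24% of all promoters and 10.7% of the promoters of genes of at least 1 RPM, which is near the share in the list.
Tpi1: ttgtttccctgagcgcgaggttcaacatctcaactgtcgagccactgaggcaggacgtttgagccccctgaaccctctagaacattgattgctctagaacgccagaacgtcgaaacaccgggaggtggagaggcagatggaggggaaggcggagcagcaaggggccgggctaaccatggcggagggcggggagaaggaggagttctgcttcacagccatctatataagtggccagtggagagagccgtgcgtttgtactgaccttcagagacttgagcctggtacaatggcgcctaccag

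The exceptions were hexokinases and genes that differed by lane. Hk2 stood at 137.5 against 119.01 RPM, and Hk1 at 9.40 against 4.22 RPM, 2.23-fold higher in hippocampus, where 7.74% of all genes measured were at least 2-fold higher. Pgk1 had lane ratios of -2.07 and 0.41, Ldha of -0.68 and 0.10 and Hk3 of -0.63 and 0.27. For glycolysis the share of cells with a read was lower in hippocampus for 15 of the 17 genes, with a median fold of 1.27. The level within such cells was lower for 9, with a median fold of 1.05. The same counts over all genes are not given here. A lower level can itself leave fewer thinned cells with a read, so these values do not separate share from level. Cells with at least 14 activated genes had more glycolysis reads in both tissues. Over the 16 members outside the activated list, the median log2 ratio of these cells over the others was 0.75 in hippocampus and 0.96 in cortex, where all genes had -0.57 and -0.27. Glycolysis was not alone in this. By the same measure ribosomal protein genes had medians of 0.82 in hippocampus and 0.50 in cortex, and lysosomal genes of 0.44 and 0.41. Homeostatic genes had medians of -0.64 and -0.40. Among cells with fewer than 14 the median log2 ratio of hippocampus over cortex of the 16 glycolysis genes was -0.28, with -0.59 in lane 1 and -0.03 in lane 2. Among cells with at least 14 it was -0.30, with -0.44 and -0.35, where the median of all genes was -0.19.

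**Figure D4:**
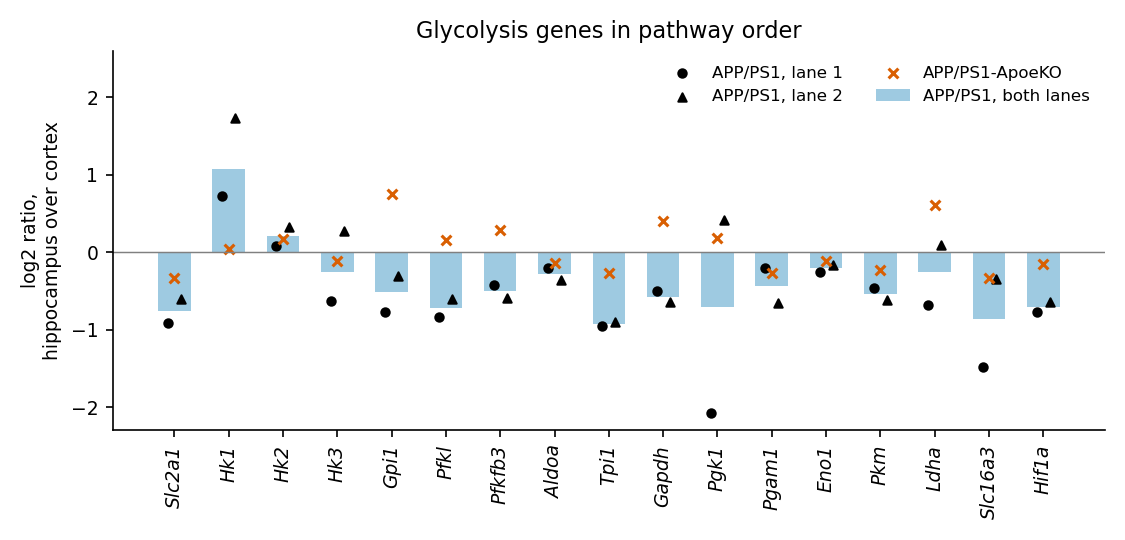
Log2 ratio of hippocampus over cortex (y axis) of the 17 measured glycolysis genes in pathway order, from glucose transport to lactate export, with Hif1a last. Bars are APP/PS1 over both lanes, circles and triangles the 2 lanes, and crosses APP/PS1-ApoeKO. Tpi1, Pfkl, Slc2a1, Gapdh and Pkm lie below 0 in both lanes, and Hk1 and Hk2 above 0.

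Among transcription factors Bhlhe40, a basic helix-loop-helix repressor, stood furthest apart. It was read at 0.03, 0, 5.78 and 0 RPM in the hippocampal plates and at 14.2, 22.8, 13.7 and 23.9 RPM in the cortical plates. It was read in 3 thinned hippocampal cells (1.10%) and 17 thinned cortical cells (5.47%). Its paralog Bhlhe41 stood at 91.8 against 76.7 RPM. Of the 17 measured microglial transcription factors 4 had a ratio below 1, against 49.7% of all genes measured. The list median was 0.15, with 0.095 in lane 1 and 0.14 in lane 2. Spi1 (PU.1, which specifies myeloid cells) stood at 383.7 against 286.3 RPM and Sall1 (a regulator of microglial identity) at 573 against 498 RPM, with overlapping plates.

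Among cholesterol and lipid genes Srebf2 stood apart. Srebf2, the regulator of cholesterol synthesis, was read at 4.41, 8.09, 10.2 and 13.7 RPM in the hippocampal plates and at 37.8, 38.4, 35.9 and 20.4 RPM in the cortical plates. It was 3.53-fold higher in cortex (3.34 to 3.74), with lane ratios of -2.45 and -1.20 and no overlap of plates. Of the 16 measured genes of cholesterol synthesis 10 had a ratio below 1 and 2 were at least 2-fold lower, Srebf2 and Lss, shares near the 49.7% and 8.09% of all genes measured. The list median was -0.30, with -0.45 in lane 1 and -0.09 in lane 2. Of 15 lipid transport genes 11 had a ratio below 1 and 5 were at least 2-fold lower, against the same shares of all genes. Their median was -0.37, and -0.24 over the 12 members outside the activated list. The efflux pumps Abca1 and Abcg1 stood at 501 against 459 RPM and 174.4 against 186.7 RPM.

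The antigen presentation and cytokine lists had medians from -0.17 to 0.35, and the interferon and MHC class II lists changed sign between the lanes. Of the 13 genes of MHC class I presentation 11 had a ratio below 1, against 49.7% of all genes measured. Their median was -0.10, with -0.12 in lane 1 and -0.084 in lane 2. Of the 13 measured chemokines and cytokines 8 had a ratio below 1. At least 2-fold lower were 4 of them, against 8.09% of all genes measured, and 1 was at least 2-fold higher, against 7.74%. Their median was -0.17, with -0.26 and -0.066 in the lanes. Interferon-response genes had a median of 0.31 that was 0.45 in lane 1 and -0.50 in lane 2, and MHC class II genes a median of 0.35 that was 0.49 and -0.12. The chemokines Ccl3 and Ccl4 stood at 28.3 against 67.02 RPM and at 11.6 against 31.9 RPM, each lower in both lanes. Il1b (interleukin-1 beta) stood at 3.52 against 29.2 RPM, but 1 cell held 62.9% of the cortical reads. A ratio below 1 was found for 34 of 39 ribosomal protein genes and all 8 mitochondrially encoded genes, against 49.7% of all genes measured. Their medians were -0.14 and -0.19. Among cells with at least 14 activated genes the ribosomal median was 0.20, where that of all genes was -0.19.

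Astrocyte markers were higher in hippocampus in a handful of cells. Of the 8 measured 6 were at least 2-fold higher, against 7.74% of all genes measured, with a median log2 ratio of 1.71. The median was 0.60 in lane 1 and 1.72 in lane 2, and 0.78 without the top cell of each gene. Slc1a3, which made up most of the list's reads, stood at 342.2 against 278.6 RPM in 60.7% and 52.7% of thinned cells, while Gfap, Slc1a2 and Aqp4 were each read in at most 1.84% of the cells of either tissue. For Gfap 1 hippocampal cell held 53.8% of the 924 reads, and 1 cortical cell all of them. Their part in the results above was not tested.

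Over all genes few ratios passed 2-fold. Genes were considered that reached 20 RPM in a tissue and were read in 10% or more of its cells. Among these 5817 genes 74 (1.27%) were at least 2-fold higher in hippocampus and 68 (1.17%) at least 2-fold lower. Of these genes 36 (0.619%) were at least 2-fold higher in both lanes and 25 (0.43%) lower in both. Lane 1 alone put 4.47% of the genes at least 2-fold higher and lane 2 alone 3.94%, and the 36 shared are 13.8% and 15.7% of these sets. At least 2-fold lower were 4.37% in lane 1 and 2.85% in lane 2, and the 25 shared are 9.84% and 15.1% of these sets. Across the 5817 genes the log2 ratios of the lanes correlated with r of 0.12 and rho of 0.086, a description of genes that share libraries and depth. In 1.93% of genes all hippocampal plates lay below all cortical plates.

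**Figure D5:**
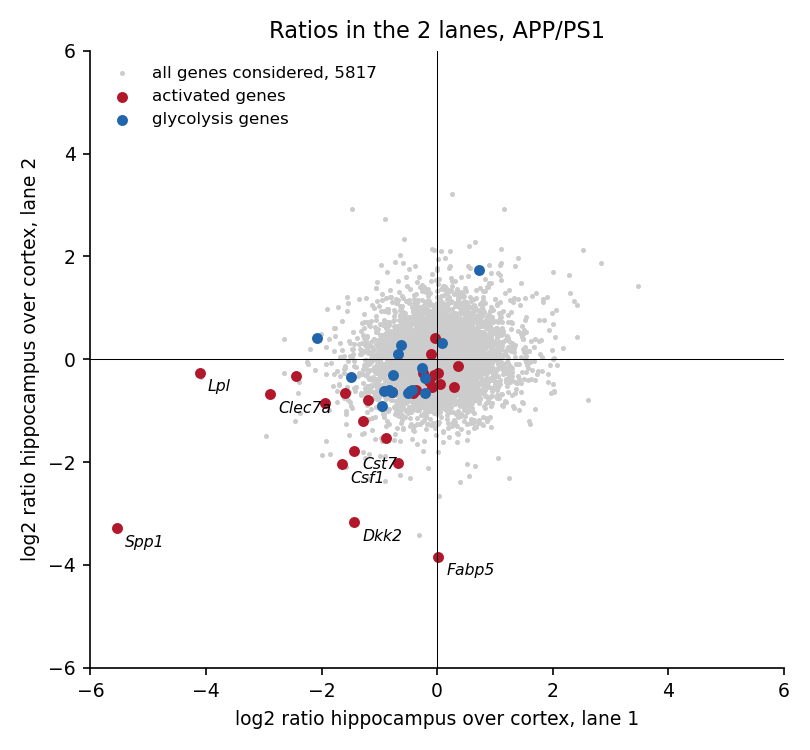
Log2 ratio of hippocampus over cortex in lane 1 (x axis) against lane 2 (y axis) for all 5817 genes considered (grey), the activated genes (red) and the glycolysis genes (blue). The grey cloud is round, with r of 0.12. Spp1, Csf1, Cst7 and Dkk2 lie at -1 or lower in both lanes, Lpl and Clec7a mainly in lane 1 and Fabp5 in lane 2.

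The genes lowest in hippocampus among those at least 2-fold lower in both lanes were led by Hps1, a subunit of a complex that forms lysosome-related organelles. It stood at 7.21, 8.27, 11.9 and 16.5 RPM in the hippocampal plates and at 71.7, 57.8, 25.8 and 54.8 RPM in the cortical plates, 4.68-fold higher in cortex (4.45 to 4.93). Sord (sorbitol dehydrogenase) stood at 9.78 against 38.7 RPM and Slc35b3 (a Golgi transporter of the sulfate donor) at 9.21 against 35.03 RPM, each with no overlap of plates. Plaur (the urokinase receptor) stood at 12.3 against 40.1 RPM, St14 (the serine protease matriptase) at 16.9 against 50.1 RPM, and Jak3 (a kinase of cytokine receptors) at 21.3 against 56.2 RPM. The rest of the 20 named by rule were Csf1, Cst7, Srebf2, C2cd2, St8sia6, Wdr70, Meis3, Cwc25, Dhx34, Perp, Prosc, Snapc2, Ptcd2 and Mthfd1, at log2 ratios from -1.88 to -1.23.

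The highest in hippocampus, by the same rule, were led by Sox4, a transcription factor, at 22.2 against 4.23 RPM, whose plates overlapped. Kcmf1 (a ubiquitin ligase) stood at 53.7, 39.1, 62.1 and 51.7 RPM in the hippocampal plates and at 6.77, 5.10, 10.4 and 20.04 RPM in the cortical plates, 4.72-fold higher in hippocampus (4.50 to 4.96). Cdk10 (a cyclin-dependent kinase) stood at 33.4 against 6.71 RPM, Dhx29 (a helicase of translation initiation) at 25.9 against 6.89 RPM, and Wdr75 (a factor of ribosome assembly) at 51.9 against 14.3 RPM. Piezo1 (a mechanically gated channel) stood at 63.6 against 22.5 RPM and Jam3 (a junctional adhesion molecule) at 20.8 against 7.08 RPM. The others named by rule were Zranb1, Rfwd2, Nol12, Sept10, Klhl26, Slf1, Zfp760, Cyth2, Prps1l3, Adprm, Ccdc28b, Yeats2 and Wwp1, at log2 ratios from 1.36 to 2.00.

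By the difference in the share of cells with a read, among genes with the same sign in both lanes, Basp1 (a membrane-bound signalling protein) gained most in hippocampus, at 54.4% against 39.5% of thinned cells. Slco4a1 (an organic anion transporter) followed. It was read in 25% of hippocampal against 10.9% of cortical thinned cells, at 101.2 to 132.2 RPM in the hippocampal plates and 43.8 to 63.7 RPM in the cortical plates. Kctd12 was read in 60.3% against 46.6% of cells and Cd2ap, an adaptor of the actin skeleton, in 31.6% against 19.3%. The largest loss was that of Soat1 (which esterifies cholesterol), in 42.3% against 57.2% of cells, followed by Bcl2a1b, an anti-apoptotic NF-kB target, in 12.5% against 27.3%. Its near-identical copies Bcl2a1a and Bcl2a1d, with which it can share reads, had log2 ratios of -1.20 and -0.998 beside its own -1.07. Tpi1 and Pfkl were also among the 10 largest losses, with Nrp1 (a co-receptor for semaphorins) in 13.97% against 27.97% of cells, Jup (plakoglobin, a junction protein) in 13.97% against 27.7%, and Acer3, Fkbp1a and Klhdc3.

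In APP/PS1-ApoeKO the medians of the activated and glycolysis lists lay near that of all genes. There the tissues were read in different lanes, so lane and tissue cannot be told apart, and the difference between genotypes was not tested. Apoe stood at 0.75 and 0.067 RPM in hippocampus and cortex of these mice. The activated list had a median log2 ratio of 0.00 and the glycolysis list of -0.11, where all genes measured had -0.10. At least 14 activated genes were read in 3.45% of hippocampal cells (1.73 to 6.09, 11 cells) and in 2.37% of cortical cells (0.65 to 5.94, 4 cells). Some genes were on the same side, with Cst7 at 66.7 against 109.2 RPM, Csf1 at 5.55 against 15.7 RPM, Srebf2 at 8.46 against 19.01 RPM, Hps1 at 30.4 against 71.4 RPM and Bhlhe40 at 0.026 against 4.95 RPM. Others were not, such as Clec7a at 61.9 against 55.4 RPM, Axl at 60.3 against 37.8 RPM and Lpl at 146.8 against 16.2 RPM. Of the 20 genes highest in APP/PS1 hippocampus 5 had a ratio above 1 in APP/PS1-ApoeKO, and of the 20 lowest 11 had a ratio below 1. The median log2 ratio of all genes considered was -0.10 there, so a ratio below 1 was the more common among all genes too. The 20 highest had a median of -0.28 there and the 20 lowest of -0.076. Beside all genes, neither set as a whole kept its APP/PS1 direction. At 2-fold the genotypes shared 6 higher genes, 8.11% of those in APP/PS1 and 4.72% of those in APP/PS1-ApoeKO, and 7 lower genes, 10.3% and 4.22%. Over all genes considered, 1.27% were 2-fold higher in APP/PS1 and 2.18% in APP/PS1-ApoeKO, and 1.17% and 2.85% were 2-fold lower. The homeostatic list had a median of 0.12 there, with Sparc, Selplg and Olfml3 at 0.28, 0.31 and 0.40.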

How the data were processed

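The deposited table holds whole-number read counts per gene and cell for 29474 genes, of which 19743 had reads in the cells used. The submitters' processing notes list Seurat 2.3.1, featureCounts 1.5.1 and STAR 2.5.2, with mm10 as build and no word on what each did. Neither strand use nor the annotation is stated. The 584 APP/PS1 cells, 273 of hippocampus (129 and 144 by lane) and 311 of cortex (153 and 158), entered with no further filter, and their labelled read totals equalled the table's in 584 cells. No doublet caller was run on cells sorted singly into wells, and 0 pairs of cells were identical.

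Reads were summed over the cells of a tissue and divided by their total, and log2 ratios used 0.5 RPM added. Genes considered reached 20 RPM in a tissue and were read in 10% or more of its cells, and list members at least 1 RPM on average over the tissues. A called difference was 2-fold. Shares of cells used 100000 reads per cell, which left 272 hippocampal and 311 cortical cells and left out 1. From APP/PS1-ApoeKO 321 hippocampal and 169 cortical cells were used, and 165 cortical cells with no labelled depth were left out. Where a tissue had 0 reads no fold was given. With 1 sample per tissue there was no test. SmartSeq2 reads are copies of fewer molecules, so intervals for ratios (conditional binomial) and shares (Clopper-Pearson) are too narrow as a measure of biological spread. The ratios and intervals were tested on simulated counts.

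Genes were named as the 20 highest and 20 lowest ratios among genes at least 2-fold apart the same way in both lanes, the 10 largest gains and losses in the share of cells with a read, and members of 34 gene lists of 513 genes. Predicted genes, pseudogenes and ribosomal RNA were counted and not named. Some genes that the rule or the lists hold are not reported here. Aqp4, Slc1a2 and Gfap rest on few cells. The genes and lists were chosen with earlier results of these data known. Python 3.11.15 with numpy 2.4.6, pandas 2.3.3 and scipy 1.17.1 was used, and edgeR 4.0.16 in R 4.3.3 for a TMM scaling factor alone. Alternatives covered scaling, filters, added RPM, lanes, plates and thinning.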

Additional observations from a re-analysis of the deposited data

Results flagged for a closer look

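The following genes stood at least 2-fold apart one way in both APP/PS1 lanes and at least 2-fold the other way in APP/PS1-ApoeKO. The difference between genotypes was not tested, and in APP/PS1-ApoeKO lane and tissue cannot be told apart. Yeats2 had a log2 ratio of hippocampus over cortex of 1.37 in APP/PS1 and of -1.01 in APP/PS1-ApoeKO. Meis3 had -1.49 in APP/PS1 and 1.10 in APP/PS1-ApoeKO. Perp had -1.34 and 1.53, with 7.67 and 2.33 RPM in the hippocampus and cortex of APP/PS1-ApoeKO. Ccl4 had -1.42 and 2.51, with 60.4 and 10.2 RPM in APP/PS1-ApoeKO. Il1b had -2.88 and 1.46, at no more than 2.75 RPM in APP/PS1-ApoeKO.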

How the results depend on the processing

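The activated list kept a median log2 ratio below 0 under every alternative run, from -1.04 with cells weighted equally to -0.64 in lane 2. The glycolysis list likewise stayed below 0, with -0.63 in lane 1 and -0.36 in lane 2. It was -0.30 in cells with at least 14 activated genes and -0.28 in cells with fewer, a split added after seeing the data. The median of all genes was -0.19 in cells with at least 14 and 0 in cells with fewer. The share of genes at least 2-fold apart moved most. Of the 5817 genes considered, 1.27% were higher and 1.17% lower in the whole data, against 4.47% and 4.37% in lane 1, 3.94% and 2.85% in lane 2, and 2.23% to 2.44% and 1.56% to 2.37% with 1 plate left out in turn, fewer cells being summed in each. A limit of 5 RPM with any share of cells gave 520 higher and 525 lower genes (5.22% and 5.27% of 9970), and a limit of 25% of cells gave 2 and 3 (0.0761% and 0.114% of 2627). The share of cells with at least 8 activated genes in cortex was 94.5% with all reads. At least 6 genes gave 97.4% in hippocampus and 97.7% in cortex, at least 10 gave 58.1% and 71.1%, and the added limit of 14 gave 11.8% and 24.8%. Outside the activated list, lipid transport genes had a median of -0.81 in cells with at least 14 activated genes and 0.0039 in the others, and cholesterol synthesis genes -0.98 and 0.051. In cells with at least 14 the homeostatic list turned from 0.10 to -0.043, where all genes had -0.19. That split sets 32 hippocampal against 77 cortical cells, and genes read in few cells enter the median of all genes. The ribosomal list turned from -0.14 to 0.20 in these cells. The interferon list turned to -0.11 with cells weighted equally, -0.096 when thinned, -0.50 in lane 2 and -0.25 without plate 2 (0.46 without plate 3). In cells with at least 14 activated genes it was -0.21, near the -0.19 of all genes there. MHC class II genes turned to -0.12 in lane 2. The hippocampal neuron list, 3 measured genes with a median of 0.39, turned to -0.57 in lane 2, -0.00213 without plate 2 (0.53 without plate 3) and -2.39 in cells with at least 14 activated genes. The endothelial list, at -0.75, turned to 0.0077 in lane 2 and 0.16 without plate 2 (-1.91 without plate 4). Of single genes, Fabp5 turned to 0.024 in lane 1, Slc1a2 to -1.47 in lane 2, and Aqp4 to -0.40 in lane 2, -0.31 without plate 2 (2.52 without plate 4) and -0.17 without its top cell. In APP/PS1-ApoeKO, adding the cortical cells with no labelled depth moved the lipid transport median from 0.26 to -0.029 and that of glycolysis from -0.11 to -0.013. The activated median went from 0.00 to -0.067. The cause of these shifts was not tested. No paired analysis was possible because each tissue is 1 sample and the labels name no animals. With 1 sample per tissue, differences between animals cannot be told apart from differences between regions.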
